A study of Rattus norvegicus with 31 samples.

Results

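A set of 6 carriers of the solute carrier (SLC) superfamily that bring organic anions, bile acids and drugs from portal blood into the hepatocyte were followed in rat liver. They are Slco1a1, Slco1b2, Slco2b1, Slc10a1, Slc22a7 and Slc22a8, chosen by name, and every row of the count data that carries one of them was taken. Of the 6 genes, 4 had a row under their own symbol. Slco1b2 was the row listed as Slco1b3, which RefSeq gives as an older symbol of rat Slco1b2 and of no other rat gene. No row was found for Slco1a1 under its symbol or its RefSeq synonyms, and it was not analysed here. The 5 genes with a row are 5 of 26312 in the table, and all 5 were among the 19904 genes tested.

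RNA-Seq was done on livers of 31 young adult female Wistar rats (Crl:WI), each a separate animal, after 28 days of daily oral gavage with pesticides suspended in aqueous carboxymethyl-cellulose. The 8 control rats received this vehicle alone. Single compounds were thiacloprid (THI, 108 mg/kg bw/day, n = 4), imazalil (IMZ, 93 mg/kg bw/day, n = 4) and clothianidin (CTD, 288 mg/kg bw/day, n = 3). The paper marks this CTD group as having lost at least 1 rat that was killed when moribund. The mixtures, each with n = 4, were THI + IMZ at 54 and 46, THI + CTD at 54 and 134, and IMZ + CTD at 46 and 135 mg/kg bw/day. THI and CTD are neonicotinoid insecticides and IMZ is an azole fungicide. All 6 treatments were set against the same 8 controls, so the 6 comparisons are not independent, and 1 dose per treatment was sequenced.

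Hepatocytes take up most organic anions across the basolateral membrane, which faces the sinusoidal blood. The organic anion transporting polypeptides (the Slco family) work without sodium and have broad, overlapping substrates, Slc10a1 (NTCP) couples conjugated bile acids to sodium, and the Slc22 carriers exchange smaller organic anions. Once inside, substrates are metabolised and leave through ATP-driven pumps on the bile side or back to blood, and expression of the uptake carriers depends on liver-enriched transcription factors and nuclear receptors.

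Levels are given in CPM (the counts of a gene per M, or mega, counts of its library), with library sizes scaled by the trimmed mean of M-values (TMM). Fold changes are log2 values from a single edgeR model of all 31 rats, and a gene was called a differentially expressed gene (DEG) at a Benjamini-Hochberg adjusted p under 0.05 over all genes tested. Each library held between 31.8 M and 101 M counts (medians of 60.5 M for controls and 40.2 M for treated rats). The 4 carriers Slco1b2, Slc10a1, Slco2b1 and Slc22a7 had between 2331 and 95528 counts in every library, so counting error was small against the spread among rats. Slc22a8 had 54 counts in all 31 libraries together. Levels of different carriers are not compared here, since CPM does not account for transcript length.

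Before the carriers, the tissue was checked. All 10 hepatocyte markers exceeded 1 CPM in controls, and their summed level was 213580 to 276824 CPM in controls and 186457 to 280508 CPM in treated rats. With CTD, where 12.7% of all genes were called, 1 of 10 hepatocyte markers (Hpx) and 1 of 8 sinusoidal endothelial markers (Kdr) were lower. Of the Kupffer cell markers 3 of 8 were lower (summed level 317 to 456 CPM, control 404 to 643), and 10 of 10 cell division markers were higher (51.6 to 187 CPM, control 6.97 to 19.2). Stellate cell and fibroblast markers had 1 of 8 higher and 1 lower with CTD, and edgeR called none of 6 cholangiocyte and none of 8 lymphocyte markers in any treatment (at most 1 and 3 at an unadjusted p under 0.05, and 1 and 0 in the DESeq2 Wald test). The cell division markers were also higher with THI + CTD and IMZ + CTD (10 of 10 each) and THI + IMZ (9 of 10). Of all genes, 4.39%, 1.46% and 1.18% were called in these mixtures. Lower with THI + CTD were 3 Kupffer cell markers (the DESeq2 Wald test called 6), 2 stellate cell and fibroblast markers, 1 hepatocyte and 1 sinusoidal endothelial marker. A stellate cell and fibroblast marker was higher with THI + CTD, THI + IMZ and IMZ (0.251% of all genes called), and 1 hepatocyte marker with THI + IMZ. With IMZ edgeR called 0 of the 10 cell division markers, but all 10 had an unadjusted p under 0.05 and the DESeq2 Wald test called 2 (18.2 to 48.9 CPM, median log2 fold change 1.51). Of the 10 hepatocyte markers, edgeR and the DESeq2 Wald test called 0 with IMZ, and 7 had an unadjusted p under 0.05 (median log2 fold change -0.16, summed level 189872 to 231992 CPM). The part of these shifts in the carrier results was not tested. In bulk liver, fewer hepatocytes and less RNA per hepatocyte cannot be told apart.

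By edgeR, CTD was the treatment in which uptake carriers were called. Slco1b2 was 1.31-fold higher than in control, Slc22a7 was 0.789-fold of control, and the nearly silent Slc22a8 had more counts. Slc10a1 and Slco2b1 did not pass the test. The carriers called are 3 of the 5 tested, beside 12.7% of all 19904 genes. Of the 3, 2 were higher, beside 6.62% of all genes, and 1 was lower, beside 6.03%. Among the 6687 genes with a mean of at least 10 CPM, 22.5% were called with CTD, and 2 of the 4 abundant carriers were. All 5 carriers had an unadjusted p under 0.05 with CTD. The share of all genes at that unadjusted level is not given here, for this or any other such count. These counts therefore do not show that the carriers differ from other genes. The DESeq2 Wald test also called 3, but with Slco2b1 (adjusted p = 0.041) among them and Slc22a8 (adjusted p = 0.0633) not. Of all genes with CTD, that test called 3007 and edgeR 2518.

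Slco1b2 encodes the rodent liver-specific OATP1B carrier, which takes up bilirubin conjugates, bile acids and statins. The 8 control livers held 812 to 1153 CPM with a median of 923. The 3 CTD livers held 1184, 1165 and 1349.6 CPM. Each CTD liver was above the highest control, by little in 2 of them, and no other treated group had a rat above that control. The share of all genes with groups apart in this way was not counted, here or for the other ranges given below. The mean was 1233 ± 101 CPM (SD, n = 3) with CTD and 940.5 ± 109 CPM (SD, n = 8) in control. The log2 fold change was 0.39 (SE 0.09, 95% interval 0.21 to 0.57, adjusted p = 0.00317). On the authors' normalized signal, the mean with CTD was 1.32 times that of control. The edgeR call held in each of the 37 alternative fits, with adjusted p from 1.68e-04 to 0.0399.

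In the mixtures, the group means of Slco1b2 lay between those of control and CTD. The IMZ + CTD livers held 1142, 1110 and 1128 CPM and, in the fourth rat, 1086 CPM. They were tightly grouped (SD 24.3 CPM, n = 4) and all within the range of the controls. THI + IMZ livers held 1009 to 1141 CPM and THI + CTD livers 949.6 to 1124 CPM. The log2 fold changes were 0.25 (SE 0.08, adjusted p = 0.142), 0.19 (SE 0.08, adjusted p = 0.377) and 0.13 (SE 0.08, adjusted p = 0.432) for IMZ + CTD, THI + IMZ and THI + CTD. With IMZ + CTD the unadjusted 95% interval of 0.08 to 0.41 left out 0, and the gene was called by the DESeq2 Wald test (adjusted p = 0.0458) and without Control replicate 6 (log2 fold change 0.29, adjusted p = 0.0454). That control liver had the highest Slco1b2 level of the 8.

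THI and IMZ alone left Slco1b2 within or near the control range. THI livers held 900.2, 958, 988 and 870.2 CPM, all among the controls. IMZ livers held 809, 798, 862 and 1002 CPM, and 2 of these were below the lowest control. The log2 fold changes were -0.02 (95% interval -0.19 to 0.15, adjusted p = 0.985) for THI and -0.12 (-0.29 to 0.05, adjusted p = 0.754) for IMZ. In descending order of group means, CTD and the next group, IMZ + CTD, had ranges that did not overlap, and each further pair of neighbours (THI + IMZ, THI + CTD, control, THI, IMZ) overlapped.

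**Figure D1:**
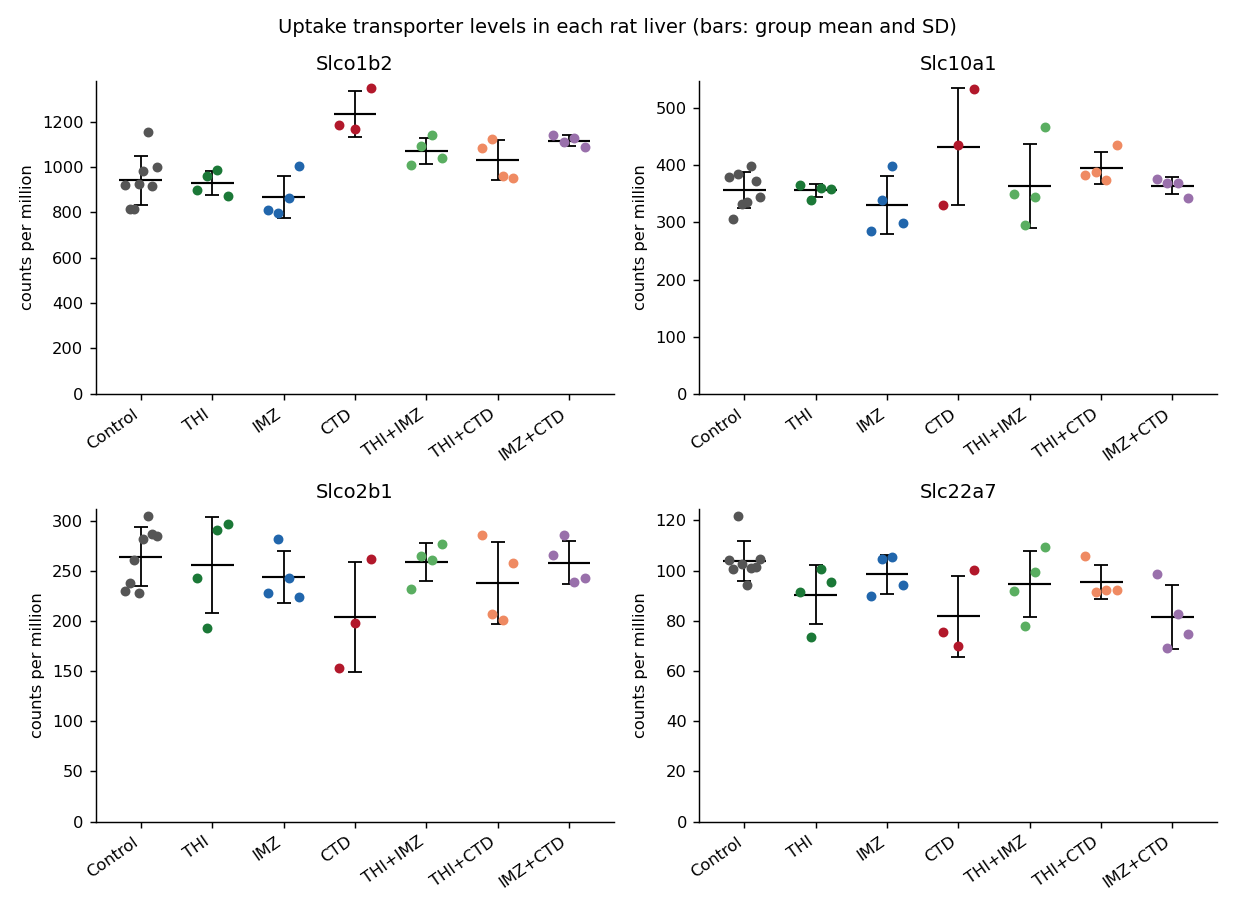
Each point is the level of 1 rat liver in CPM (linear axis from 0), by treatment, for Slco1b2, Slc10a1, Slco2b1 and Slc22a7, with black bars for the group mean and SD. The 3 CTD livers lie above the 8 controls for Slco1b2, while the CTD values of the other carriers are spread widely and overlap with control.

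Slc10a1 encodes NTCP, the sodium-dependent carrier of conjugated bile acids. Controls held 306 to 399 CPM with a median of 358, and the CTD livers held 330, 435 and 534 CPM. The first CTD liver was inside the control range and the others were above it. The mean with CTD was 433 ± 102 CPM (SD, n = 3), against 357 ± 31.9 CPM (SD, n = 8) in control. The log2 fold change of 0.28 (SE 0.12, 95% interval 0.04 to 0.52) did not pass the test (adjusted p = 0.125). Single livers moved this value in both directions. Without CTD replicate 1, the lowest of the 3, the log2 fold change was 0.44 (adjusted p = 0.023), and without CTD replicate 3, the highest, it was 0.10 (adjusted p = 0.662). With THI + CTD the level was 374 to 436 CPM in the 4 rats and the log2 fold change 0.15 (SE 0.11, adjusted p = 0.499). The THI, THI + IMZ and IMZ + CTD means were close to control, with log2 fold changes of 0.00, 0.03 and 0.03, and IMZ gave -0.11 (adjusted p = 0.809). Single THI + IMZ livers were spread from 295.5 to 467.8 CPM, with 1 above and 1 below every control. IMZ livers ran from 284.6 to 399.4 CPM, with 1 above and 2 below every control. The ranges of every pair of neighbouring groups overlapped, in the descending order CTD, THI + CTD, THI + IMZ, IMZ + CTD, control, THI and IMZ.

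Slco2b1 encodes OATP2B1, a carrier of steroid sulfates and drugs that is also expressed outside the liver. Controls held 228 to 304 CPM (median 271), and the CTD livers held 153, 198 and 262 CPM. Of the 3 CTD livers, 2 were below the lowest control and the other was inside the control range. The group means were 204 ± 54.6 CPM (SD, n = 3) with CTD and 264 ± 29.4 CPM (SD, n = 8) in control. The log2 fold change of -0.37 (SE 0.14, 95% interval -0.65 to -0.09) did not pass the test (adjusted p = 0.0722). It did pass in the DESeq2 Wald test (adjusted p = 0.041) and without CTD replicate 3, the highest of the 3 (log2 fold change -0.59, adjusted p = 0.00814), and without CTD replicate 1 it was -0.20. In the other treatments the log2 fold changes ran from -0.15 with THI + CTD to -0.03 with THI + IMZ and IMZ + CTD, and no pair of neighbouring groups had ranges apart. Livers below every control also numbered 2 of 4 with THI + CTD, 1 of 4 with THI and 1 of 4 with IMZ.

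Slc22a7 encodes OAT2, an exchanger of organic anions that also handles nucleotides and creatinine. Controls held 94.3 to 122 CPM with a median of 102, and the CTD livers held 75.7, 69.8 and 100.2 CPM. In all, 2 CTD livers were below every control and the third was inside the range. The mean was 81.9 ± 16.2 CPM (SD, n = 3) with CTD and 104 ± 7.95 CPM (SD, n = 8) in control. The log2 fold change of -0.34 (SE 0.11, 95% interval -0.57 to -0.11) passed the test narrowly (adjusted p = 0.0434). The call was lost without CTD replicate 1 (-0.29, adjusted p = 0.206), without CTD replicate 2 (-0.24, adjusted p = 0.292) and without Control replicate 1 (-0.34, adjusted p = 0.054), replicate 3 (-0.30, adjusted p = 0.0773), replicate 7 (-0.34, adjusted p = 0.0523) or replicate 8 (-0.34, adjusted p = 0.0553). Without CTD replicate 3 the log2 fold change was -0.51 (adjusted p = 0.00576).

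The IMZ + CTD livers had Slc22a7 levels of 98.8, 69.3, 82.8 and 74.8 CPM, and 3 of these were below every control. The log2 fold change of -0.35 (SE 0.10, 95% interval -0.56 to -0.14) was about that of CTD but did not pass the test (adjusted p = 0.0819). It passed in the DESeq2 Wald test (adjusted p = 0.0314), in the fit of only the groups compared (adjusted p = 0.0499) and without IMZ+CTD replicate 1 (-0.46, adjusted p = 0.018). THI livers held 91.6, 73.6, 100.8 and 95.5 CPM (log2 fold change -0.20, adjusted p = 0.589). THI + IMZ livers held 91.9, 77.9, 99.6 and 109 CPM (-0.13, adjusted p = 0.659), and THI + CTD livers 106, 91.6, 92.3 and 92.2 CPM (-0.12, adjusted p = 0.556). IMZ livers held 89.7, 105, 105 and 94.3 CPM (-0.07, adjusted p = 0.873). Livers below every control also numbered 3 of 4 with THI + CTD, 2 of 4 each with THI and THI + IMZ, and 1 of 4 with IMZ. All 6 group means were below that of control, but they share those controls, and the ranges of all neighbouring groups in the order of means overlapped.

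**Figure D2:**
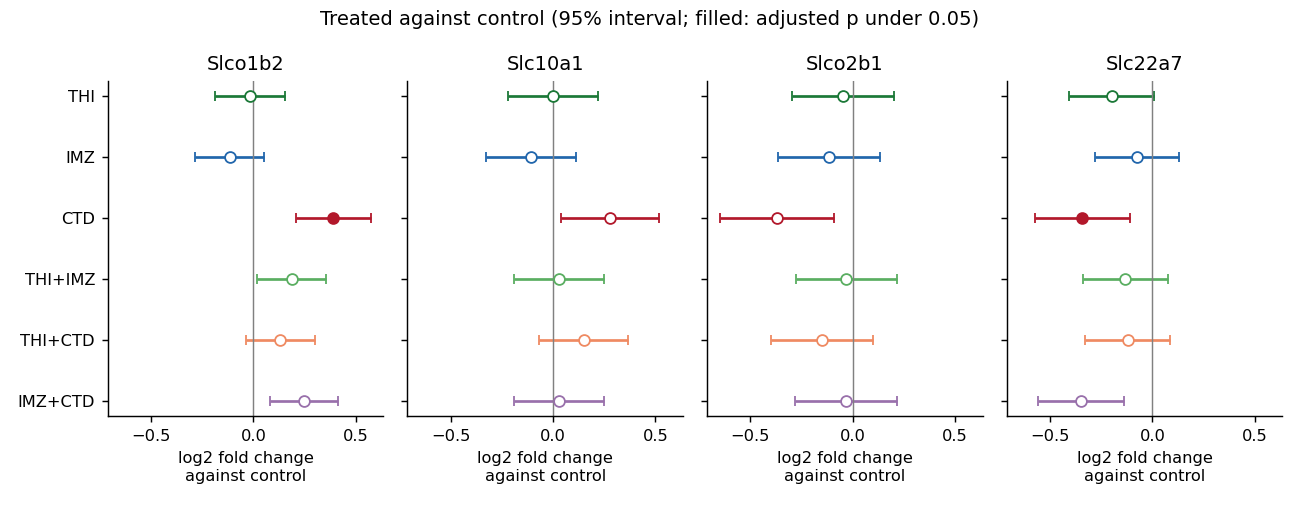
The log2 fold change of each abundant carrier against control (x axis) is shown for the 6 treatments (y axis), with its unadjusted 95% interval from edgeR. Filled points have an adjusted p under 0.05, and these are Slco1b2 and Slc22a7 with CTD. The CTD intervals of Slc10a1 and Slco2b1 also leave out 0.

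The 3 CTD rats differed among themselves in the same way for some carriers and not for others. CTD replicate 3 had the highest level of the 3 for Slco1b2, Slc10a1, Slco2b1 and Slc22a7 alike. CTD replicate 1 had the lowest Slc10a1 and Slco2b1, and CTD replicate 2 the lowest Slco1b2 and Slc22a7. The plot of the CTD fits sets out how the call of each carrier moved when a single rat was left out.

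**Figure D3:**
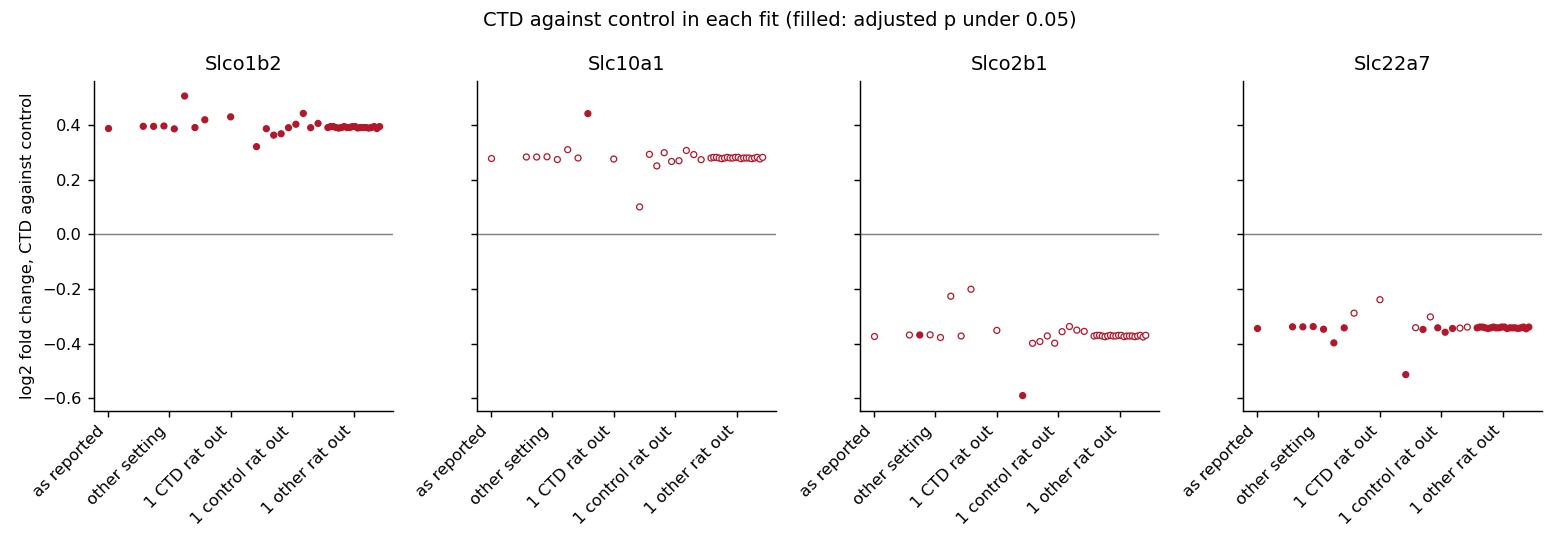
Each point is the log2 fold change of CTD against control (y axis) in 1 fit, grouped on the x axis by what was changed (the reported fit, another setting, or 1 rat left out), and filled where the adjusted p was under 0.05. Slco1b2 is filled in all 38 fits, and Slc22a7 turns open when CTD replicate 1 or 2 or certain controls are left out. Slc10a1 is filled in 1 fit and Slco2b1 in 2 fits.

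Slc22a8 encodes OAT3, a carrier best known from the basolateral membrane of the renal proximal tubule. In liver it was close to silent. Control livers gave 0 counts in 6 rats and 2 counts in each of 2 rats. The CTD livers gave 0, 6 and 8 counts, THI livers 3, 1, 0 and 11, and IMZ livers 2, 4, 1 and 0. The mixtures gave 0, 0, 2 and 3 counts (THI + IMZ), 2, 0, 3 and 3 (THI + CTD) and 0, 1, 0 and 0 (IMZ + CTD). The highest single count was in a THI liver, and every group had at least 1 rat at 0. Over the groups, 14 counts in 105.7 M with CTD against 4 in 491 M in control gave a ratio of 16.3 (exact 95% interval 5.11 to 67.9, counting error only, which does not cover the spread among rats).

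The edgeR call of Slc22a8 with CTD (log2 fold change 3.5, SE 1.12, adjusted p = 0.0362) rested on 2 rats. It was lost without CTD replicate 2 (adjusted p = 0.105) or replicate 3 (adjusted p = 0.194), without any of Control replicates 1, 2, 4, 5, 6 and 8 (adjusted p = 0.0502 to 0.0618), in the DESeq2 Wald test (adjusted p = 0.0633) and with only the groups compared (adjusted p = 0.0604). With THI the log2 fold change was 2.97 (SE 1.07, adjusted p = 0.357). Of 6 kidney markers, 4 (Slc34a1, Slc22a6, Slc5a2 and Slc22a12) had 0 counts in all CTD livers and Umod had 1 count. The sixth, Lrp2, which liver also expresses, was at 20.0 CPM in control. By edgeR and the DESeq2 Wald test 0 of the 6 were called in any treatment, and at most 1 had an unadjusted p under 0.05.

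**Figure D4:**
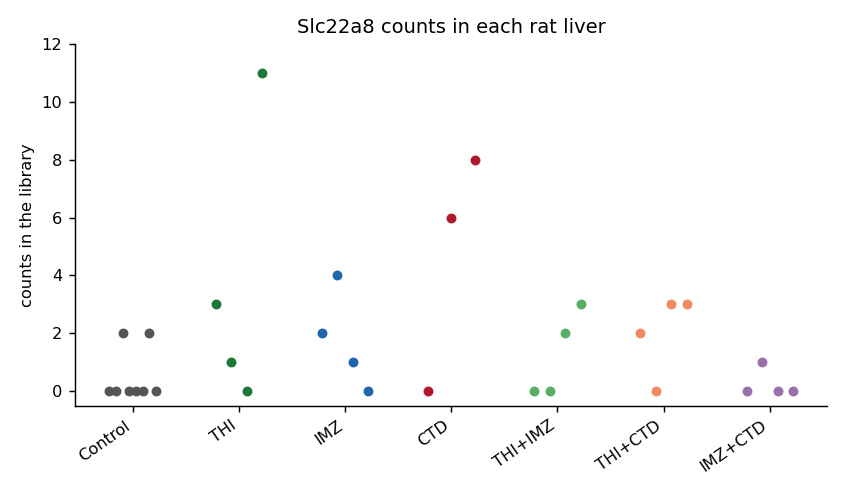
Slc22a8 counts (y axis, not scaled for library size) are shown for each rat by treatment. Controls lie at 0 or 2 counts, and the 3 highest values are 11 counts in a THI liver and 8 and 6 counts in CTD livers.

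Outside CTD, no uptake carrier was called by edgeR against control, where the background of all genes was 0.543% with THI, 0.251% with IMZ, 1.18% with THI + IMZ, 4.39% with THI + CTD and 1.46% with IMZ + CTD. At an unadjusted p under 0.05 the counts among the 5 carriers were 1, 0, 1, 0 and 2, in the same order, without a background at that level. The DESeq2 Wald test called 0 in the first 4 of these comparisons and 2 with IMZ + CTD. Of all genes with IMZ + CTD, that test called 567 and edgeR 290. For THI, IMZ, THI + IMZ and THI + CTD, the 16 log2 fold changes of the 4 abundant carriers ran from -0.20 to 0.19, and their 95% intervals together spanned 0.754-fold to 1.29-fold. Changes larger than these in either direction are outside the intervals. For comparison, the median size of the log2 fold change among genes of at least 10 CPM was 0.0798 with THI, 0.0787 with IMZ, 0.0911 with THI + IMZ, 0.112 with THI + CTD, 0.0932 with IMZ + CTD and 0.175 with CTD.

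The single compounds were also set against each other, at doses that differ. Slco1b2 was higher with CTD than with THI by a log2 difference of 0.41 (SE 0.10, adjusted p = 0.0123) and higher than with IMZ by 0.51 (SE 0.10, adjusted p = 0.00312). No CTD liver overlapped with a THI or IMZ liver, and the share of all genes with such a gap was not counted. By edgeR it was the only carrier of the 5 called in either comparison, beside 6.62% of all genes called between CTD and THI and 4.67% between CTD and IMZ. The background in the direction higher with CTD was 3.42% and 2.28%. In each comparison 3 of the 5 carriers had an unadjusted p under 0.05, and the DESeq2 Wald test called 1 against THI and 2 against IMZ. Of all genes, that test called 1796 against THI and 1461 against IMZ, and edgeR 1317 and 930. Fitted on only the groups compared, neither difference passed (adjusted p = 0.0958 and 0.0591), and the difference from THI was lost without CTD replicate 3 (0.34, adjusted p = 0.0735). Between THI and IMZ edgeR called 0 of the 5 carriers, as did the DESeq2 Wald test, and none had an unadjusted p under 0.05, with 0.01% of all genes called. The largest of the 4 abundant carriers' differences there was a log2 difference of -0.12 for Slc22a7 (95% interval -0.36 to 0.11).

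Each mixture was set against the sum of its compounds' log2 fold changes weighted by dose (0.5 for THI and IMZ, 0.47 for CTD), which asks whether a carrier responded to the mixture as the single compounds would predict. No carrier departed from this sum by edgeR or by the DESeq2 Wald test, where 0.0151% of all genes did with THI + IMZ, 0.286% with THI + CTD and 1.16% with IMZ + CTD. Counted at an unadjusted p under 0.05, the carriers were 1, 0 and 0. The exception was Slco1b2 with THI + IMZ, where a sum of -0.07 was predicted and 0.19 measured, a log2 difference of 0.25 (95% interval 0.09 to 0.42, adjusted p = 0.467). For THI + CTD the Slco1b2 values were 0.17 predicted and 0.13 measured, and for IMZ + CTD they were 0.13 and 0.25. For Slc22a7 with IMZ + CTD the sum was -0.20 and the measured value -0.35, a log2 difference of -0.15 (95% interval -0.36 to 0.06, adjusted p = 0.536). The 12 differences of the 4 abundant carriers ran from -0.15 to 0.25.

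Promoter sequences of the carriers were searched for motifs of liver transcription factors known to regulate such genes. RefSeq promoters on GRCr8 were found for all 6 carriers, and the 250 bases before the annotated start were searched on both strands for 4 motifs. The motifs were the HNF4 element CAAAGTCCA, the nuclear receptor core AGGTCA, the STAT5 element TTCNNNGAA and a CEBP element TTNNGCAAT. The carriers called in opposite directions with CTD, Slco1b2 (chr4:176282334-176282583, + strand) and Slc22a7 (chr9:22045248-22045497, + strand), are shown with Slc10a1 (chr6:106357945-106358194, - strand), the bile acid carrier that missed the threshold. Each runs 5′ to 3′ towards its gene, and capitals mark the motif matches.
Slco1b2: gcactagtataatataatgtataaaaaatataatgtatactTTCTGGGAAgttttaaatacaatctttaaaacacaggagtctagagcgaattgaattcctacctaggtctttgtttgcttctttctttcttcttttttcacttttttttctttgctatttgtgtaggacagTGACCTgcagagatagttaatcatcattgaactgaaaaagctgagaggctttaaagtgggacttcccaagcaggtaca
Slc10a1: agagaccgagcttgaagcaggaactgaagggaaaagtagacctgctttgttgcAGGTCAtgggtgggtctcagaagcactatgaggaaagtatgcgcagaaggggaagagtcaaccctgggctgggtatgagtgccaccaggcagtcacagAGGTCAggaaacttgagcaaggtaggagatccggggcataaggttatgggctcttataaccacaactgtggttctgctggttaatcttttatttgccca
Slc22a7: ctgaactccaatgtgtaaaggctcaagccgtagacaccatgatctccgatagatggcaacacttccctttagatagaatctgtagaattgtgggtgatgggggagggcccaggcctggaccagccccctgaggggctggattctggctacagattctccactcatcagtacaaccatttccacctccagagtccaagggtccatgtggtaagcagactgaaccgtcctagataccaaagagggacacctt

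Slco1b2 held 1 STAT5 element and 1 nuclear receptor core, the latter on the reverse strand. Slc10a1 held 2 nuclear receptor cores, and Slco2b1 held 1 STAT5 and 1 CEBP element. Slc22a7, Slc22a8 and Slco1a1 held no match. Among 33469 rat promoters of the same length, the nuclear receptor core was found in 14.1%, the STAT5 element in 7.67%, the CEBP element in 2.04% and the HNF4 element in 0.338%. No carrier promoter held the HNF4 element. A match is a run of letters in this window and says nothing of binding.

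Of 15 regulators of such carriers, 3 were called with CTD, where 12.7% of all genes were called. Those that were lower were Rxra, the common partner of nuclear receptors (204 ± 14.2 CPM in control, 161 ± 24.8 with CTD, log2 fold change -0.34, adjusted p = 0.00801), and Stat5b, which relays growth hormone signals (88.3 ± 4.64 CPM in control, 65.6 ± 9.4 with CTD, log2 fold change -0.43, adjusted p = 1.59e-04). Nr1i3, the constitutive androstane receptor CAR, was higher (1.10, adjusted p = 0.00987). The median over the 15 was -0.14 with CTD, beside -0.07 over all genes. The Rxra call was lost without CTD replicate 1 (-0.22, adjusted p = 0.153), and that of Nr1i3 without CTD replicate 2 (0.99, adjusted p = 0.0661) or 3 (0.93, adjusted p = 0.0704) and with only the groups compared (adjusted p = 0.0576).

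In the other treatments, edgeR and the DESeq2 Wald test called 0 of the 15 regulators with THI or IMZ, and 4 had an unadjusted p under 0.05 in each. Nr1i3 was higher with THI + IMZ (1.24, adjusted p = 0.0122) and THI + CTD (1.37, adjusted p = 0.00194), and the first of these calls was lost with only the groups compared (adjusted p = 0.0753). Stat5b was lower with THI + CTD (-0.28, adjusted p = 0.0105). With IMZ + CTD the 1 call was Nr1i2, the pregnane X receptor PXR (103 ± 10.4 CPM in control, 79.9 ± 13 in the mixture, log2 fold change -0.37, adjusted p = 0.0368). It was lost without Control replicates 4, 5 or 7 (adjusted p = 0.0592, 0.0566 and 0.0506) and without IMZ+CTD replicates 2, 3 or 4 (adjusted p = 0.149, 0.201 and 0.112). It was also lost with only the groups compared (adjusted p = 0.0619). Whether any regulator's level bears on a carrier was not tested.

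The rest of the Slco, Slc10a and Slc22a families had 33 genes tested here, of which 11 had a control mean of at least 1 CPM. With CTD 1 rose and 2 fell, with THI + CTD 1 rose and 1 fell, and 1 rose with THI, where 12.7%, 4.39% and 0.543% of all genes were called in either direction. By edgeR 0 were called with IMZ, THI + IMZ or IMZ + CTD, where 1, 4 and 6 had an unadjusted p under 0.05 and the DESeq2 Wald test called 0, 1 and 0. The median log2 fold change over the 33 was -0.27 with CTD, beside -0.07 over all genes, in a list where 22 genes lay under 1 CPM.

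Slco1a4 (OATP1A4), an uptake carrier of the same gene cluster as Slco1b2 and known as a target of PXR, was higher in 3 treatments. Controls held 51.1 to 203 CPM (138 ± 49.2, SD, n = 8). CTD livers held 243 to 314 CPM and THI + CTD livers 249.8 to 306 CPM, both groups above every control. THI livers held 179 to 343 CPM and overlapped with control. The log2 fold changes were 0.96 (SE 0.28, adjusted p = 0.0197) with CTD, 1.02 (SE 0.25, adjusted p = 0.0154) with THI + CTD and 1.09 (SE 0.25, adjusted p = 0.037) with THI. The values of 0.73 with IMZ (adjusted p = 0.343) and 0.85 with THI + IMZ (adjusted p = 0.113) did not pass, and IMZ + CTD gave 0.05. The CTD call was lost without CTD replicate 2 (0.82, adjusted p = 0.118), and the THI call without THI replicates 1, 3 or 4 (adjusted p = 0.168, 0.126 and 0.116) and Control replicates 3, 5, 6 or 8 (adjusted p = 0.0605 to 0.0751). With the THI rats and controls fitted alone, the THI call was lost (adjusted p = 0.0876). Slco1a4 has close paralogs, so how reads were shared within the cluster is uncertain.

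Slc10a7 and Slco5a1 were lower with CTD. Slc10a7, a relative of NTCP that does not carry bile acids, fell with CTD from 4.58 ± 0.235 to 1.74 ± 0.262 CPM (log2 fold change -1.39, adjusted p = 2.76e-09). In the mixtures with CTD its log2 fold changes were -0.13 with THI + CTD (adjusted p = 0.502) and 0.02 with IMZ + CTD (adjusted p = 0.961). Slco5a1, at 0.561 CPM in control, was lower with CTD (-1.97, adjusted p = 0.0281) and THI + CTD (-1.99, adjusted p = 0.0221). Both Slco5a1 calls were lost without single rats, namely CTD replicate 1 (adjusted p = 0.153) or 2 (adjusted p = 0.161), and THI+CTD replicate 1 (adjusted p = 0.0665) or 3 (adjusted p = 0.0953). The CTD call was also lost with only the groups compared (adjusted p = 0.0646).

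A list of hepatic efflux carriers was set beside the uptake carriers. Of 11 tested, 1 was higher with IMZ, THI + IMZ and IMZ + CTD, and 2 with THI, CTD and THI + CTD. The shares of all genes called were 0.251%, 1.18%, 1.46%, 0.543%, 12.7% and 4.39%, in the same order. None of the 11 was called lower in any treatment. Slc51a, Slc47a1 and Slc51b had 6, 9 and 32 counts in all libraries together, so a fall in them could hardly be called. Abcc3 (MRP3), the basolateral pump for conjugates, was higher in all 6. Its control level was 11.1 ± 5.82 CPM (SD, n = 8), and the treated means ran from 34.9 ± 9.03 CPM with IMZ + CTD to 78.9 ± 15.5 CPM with THI + CTD. The log2 fold changes ran from 1.65 (adjusted p = 1.64e-04) to 2.82 (adjusted p = 8.57e-10) in these same treatments.

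The P-glycoprotein genes, which encode pumps on the bile side, were called in fewer treatments. Abcb1a was higher with THI (log2 fold change 0.68, adjusted p = 0.0486) and THI + CTD (0.66, adjusted p = 0.0163). The THI call lay at the threshold and was lost on leaving out any of 21 of the 31 rats, 7 controls among them (adjusted p up to 0.292), or with no filter (adjusted p = 0.0662), and that of THI + CTD without THI+CTD replicate 4 (adjusted p = 0.0932). Abcb1b was higher with CTD (8.91 ± 3.85 CPM in control, 25.2 ± 21.3 with CTD, log2 fold change 1.5, adjusted p = 0.00495), but without CTD replicate 1 the log2 fold change was 0.55 (adjusted p = 0.445).

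**Figure D5:**
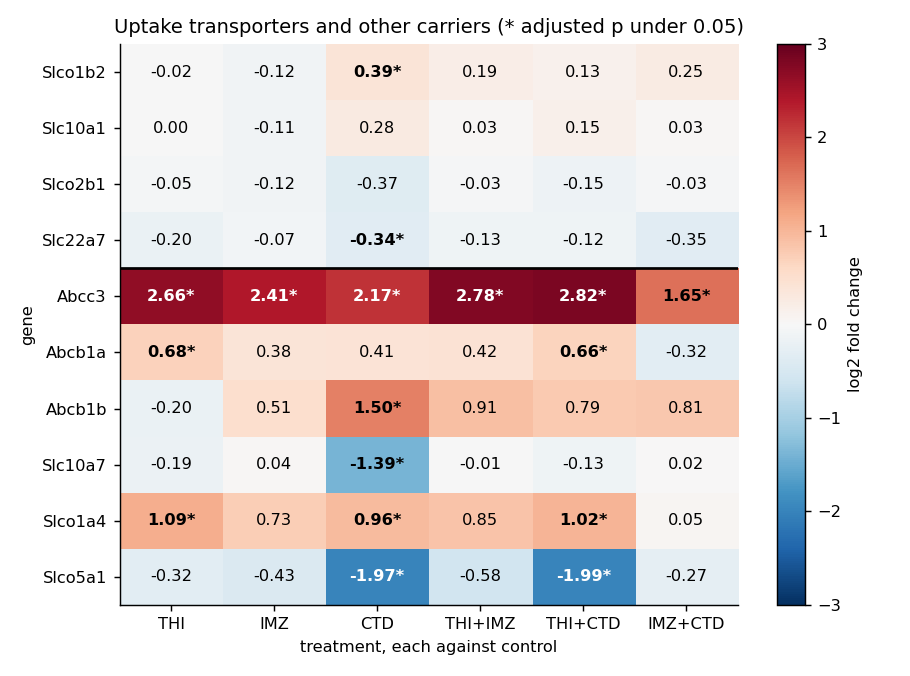
Cells give the log2 fold change of each gene (rows) against control in the 6 treatments (columns), with an asterisk where the adjusted p was under 0.05. The 4 abundant uptake carriers lie above the line, and below it are the efflux and family genes called in at least 1 treatment. Abcc3 is called in all 6 columns with values of 1.65 to 2.82, while the uptake carriers stay between -0.37 and 0.39.

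Among the controls, the carriers varied about as much as other genes. The coefficient of variation over the 8 control rats was 11.6% for Slco1b2, 11.1% for Slco2b1, 8.94% for Slc10a1 and 7.66% for Slc22a7. The median over 6678 genes with a control mean of at least 10 CPM was 9.42%. With CTD the coefficients were 8.22% for Slco1b2 and 19.7% to 26.7% for the other carriers, from 3 rats.

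Within groups, some of the carriers varied together from rat to rat. On deviations of log2 CPM from the group means over 31 rats, 6 pairs were compared by permutation within groups. Slc10a1 and Slc22a7 had r = 0.581 and rho = 0.586 (permutation p = 0.0058 and 0.00292, adjusted p over the 6 pairs 0.0264 and 0.0175), and r was 0.547 without the 2 rats farthest from the median. Slc10a1 and Slco2b1 had r = 0.523 and rho = 0.496 (permutation p = 0.00879 and 0.00999, adjusted p = 0.0264 and 0.03). Without the 2 farthest rats, r was 0.324 (permutation p = 0.052), so the size of r depended in part on those rats. Slco2b1 and Slc22a7 had r = 0.47 and rho = 0.426 (permutation p = 0.034 and 0.0371, adjusted p = 0.0679 and 0.0741). The 3 pairs with Slco1b2 had r from 0.0232 to 0.24, with permutation p from 0.232 to 0.894. Values of a rat come from 1 library, which they share.

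Across all 31 rats, the genes whose log2 CPM followed each carrier most closely were ranked among 10929 genes with a mean of at least 1 CPM, as a description. For Slco1b2 these were Xiap, an inhibitor of caspases (r = 0.741, rho = 0.725), Ndc1, a nuclear pore protein (0.74, 0.767), and Papss1, which makes the sulfate donor PAPS (0.734, 0.663). For Slc10a1 they were Slc17a1, a phosphate and anion carrier (0.724, 0.686), Nup210, a nuclear pore protein (0.712, 0.597), and Maob, monoamine oxidase B (0.692, 0.681). For Slco2b1 they were Proc, the anticoagulant protein C (0.785, 0.664), the gene listed as GJB1, a gap junction protein (0.784, 0.667), and Slc38a4, an amino acid carrier (0.769, 0.694). For Slc22a7 they were Psen2, a subunit of gamma-secretase (0.694, 0.678), Entpd8, a surface nucleotidase (0.687, 0.7), and Lsr, a lipoprotein receptor (0.683, 0.601). In the 8 controls alone, the first gene of each list had r = 0.722, 0.837, 0.515 and 0.514, and none of the 12 genes was then among the first 3.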

How the data were processed

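Total RNA of 31 rat livers was sequenced from a stranded library kit. The authors trimmed adapters, checked reads with FastQC 0.11.5, aligned them to the Rnor_5.0 build and made a read count for each gene by STAR 2.5.2b. The strand setting and annotation release are not given in the sources used here. The deposited count table holds whole, unnormalized counts for 26312 genes. The deposited normalized table holds a signal, the counts of 19904 genes divided by the size factors of DESeq2 1.15.1 (largest relative deviation 5.3e-15), and was used as a check and for 1 ratio.

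Groups came from the sample labels. All genes that reached 2 counts over the 31 libraries were tested with the quasi-likelihood test of edgeR 4.0.16 in R 4.3.3 (TMM, 1 mean per group), with p adjusted by Benjamini-Hochberg over 19904 genes at a threshold of 0.05. Standard errors (SE) were taken as the fold change (log2) over the root of the F statistic, and 95% intervals are unadjusted. Tests of the mixtures used the dose-weighted contrasts of the same model. DESeq2 1.42.0 gave alternatives, and the fit was tested on simulated data. For log2 CPM the prior count was 2. Tables, permutations (100000 per pair, 2-sided) and plots were made in Python 3.11.15 with numpy, pandas, scipy and matplotlib.

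The carriers and lists were chosen with earlier results of these data known. Named were all carriers, every list gene called against control in at least 1 treatment (regulators, efflux carriers, other family members), and for each carrier the 3 genes of highest r. Depth was 31.8 to 101 M counts per library, and intervals of counts cover counting error only. A gene annotation of Rnor_5.0 was not used here. Only promoter sequences, credited to RefSeq, have positions, on GRCr8. Results for some single genes are left out.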

Additional observations from a re-analysis of the deposited data

Results flagged for a closer look

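The level of Slco1b2 differed between the single compounds. The log2 difference was 0.408 between CTD and THI and 0.507 between CTD and IMZ, tested as differences in the model and past the threshold in both. The doses of the compounds differ.

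In 30 sets of 4 or 8 rats (5 carriers in 6 groups, CTD having too few rats), 3 single livers lay far from the others of their group by Dixon's criterion at 95%. Chance gives about 1 in 20 for normally distributed values, a rate that does not hold for the few counts of Slc22a8. For Slc22a7, Control replicate 3 had 122 CPM, the highest of the 8, and THI+CTD replicate 1 had 106 CPM while the other 3 rats lay close together at 91.6 to 92.3 CPM. For Slc22a8, IMZ+CTD replicate 2 had 0.0284 CPM, which is 1 count in a group with 0 counts otherwise. Such a lone count is always flagged by this criterion.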

How the results depend on the processing

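Over 27 log2 fold changes of the carriers and 37 alternative fits (6 other settings and each of the 31 rats left out), 951 of 998 values had the direction and the call of the reported fit. Another 19 changed sign, 20 lost the call and 8 gained it. Most of the 27 were not called, so staying uncalled makes up most of the 951. With 1 rat left out, the CTD call was kept in 31 of 31 fits for Slco1b2, 25 for Slc22a7 and 23 for Slc22a8. The Slc22a8 call was kept in 2 of 5 other settings. The count of carriers called with CTD was 3 and ran from 1 to 3 with 1 rat left out, with 1 called without Control replicate 1 or 8 or CTD replicate 2. With IMZ + CTD it was 0 and became 2 in the DESeq2 Wald test, 1 with only the groups compared and 0 to 1 with 1 rat left out (1 without Control replicate 6 or IMZ+CTD replicate 1). Between CTD and IMZ it was 1 and became 2 in the DESeq2 Wald test, 0 with only the groups compared and 1 to 2 with 1 rat left out (2 without IMZ replicate 3 or CTD replicate 1). Between CTD and THI it was 1 and became 0 with only the groups compared. The other counts stayed within 1.5 times in all alternatives run. The cause of these moves was not tested.

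The sign changed in 19 values, with adjusted p of 0.716 or more. Slc10a1 with THI became 0.00203 under filterByExpr, 9.49e-05 with only the groups compared and ran from -0.0312 to 0.0183 with 1 rat left out. With 1 rat left out, Slco1b2 with THI ran from -0.051 to 0.0265, Slco2b1 with THI from -0.126 to 0.0588, Slco2b1 with THI + IMZ from -0.0622 to 0.0176 and Slc10a1 with THI + IMZ from -0.11 to 0.12.

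With the replicate number as a block, 2 carriers were called with CTD, and Slc22a8 was not (adjusted p = 0.193). The block turned the sign of Slco1b2 with THI (0.0968), Slc10a1 with THI (0.0244), and Slco2b1 with THI (0.0938), IMZ (0.0317), THI + IMZ (0.113) and IMZ + CTD (0.117). Over 78 pairs of same-numbered rats, deviations from the group means had a median r of 0.0316 (range -0.285 to 0.399), so the rule for pairing, r over 0.1 in every pair, was not met. For pairs of rats with different numbers, from different groups, the median r was -0.00625. Of 27 rats with a same-numbered rat in another group, 11 correlated best with one of these. The number to expect without pairing was not worked out, so this count does not decide whether a block is needed. Among the list genes, the block ended all 3 calls of Slco1a4 (adjusted p = 0.308 with THI, 0.0837 with CTD and 0.117 with THI + CTD), both of Abcb1a (0.18 and 0.0542) and Slco5a1 (0.127 and 0.134), and those of Abcb1b with CTD (0.0813), Nr1i2 with IMZ + CTD (0.203) and Stat5b with THI + CTD (0.0528).

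Over all genes, the count called with CTD was 2518 and ran from 1571 with the block to 3007 in the DESeq2 Wald test, and was 1470 without CTD replicate 1. With IMZ + CTD it was 290 and ran from 80 with the block to 567 in the DESeq2 Wald test, and was 98 without IMZ+CTD replicate 3. With only the groups compared, counts between CTD and THI fell from 1317 to 448 and between CTD and IMZ from 930 to 240. CTD had 3 rats, and Slc22a8 had too few counts for its fold change to be set precisely at this depth.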
